A study of Arabidopsis thaliana with 20 samples.

Results

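The regions described here are 331 differentially methylated regions (DMRs) of Arabidopsis thaliana that the authors called in the cmt3 mutant for CHG methylation and that share bases with a cmt3 DMR called for CHH methylation. They were picked from the 2960 cmt3 CHG DMRs by this overlap alone. The rule itself uses no histone H3 value, although it was set with earlier results of these data known. The other 2629 CHG DMRs lay outside CHH DMRs and served for comparison. Each DMR is 100 bp long, and the 9 DMR sets of the series hold 81944 in all. The overlap was of all 100 bases in 199 of the 331 and of 50 bases in 132.

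In plants, cytosines are methylated in the contexts CG, CHG and CHH, where H is any base but G. CMT3 is a chromomethylase that maintains CHG methylation at transposons and repeats, in a loop with methylation of lysine 9 on histone H3. CHH methylation is laid down chiefly by CMT2 and by DRM2, the methyltransferase of RNA-directed DNA methylation. MET1 copies CG methylation at replication. A region that is a DMR for both CHG and CHH in cmt3 is thus one where loss of this enzyme also goes with a difference in the CHH context.

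H3 occupancy was measured by MNase-H3-ChIP-seq: nuclease removes unprotected DNA, and antibody against H3 then recovers the nucleosomal fragments, which were read from both ends. The groups were wild-type Col-0 and the cmt3 mutant, both of the Columbia background and both mature leaves of plants aged 3.5 weeks, with 2 replicates per genotype. The labels name no cmt3 allele. Values for drm2 and met1-3, of the same background, tissue and age, also with 2 replicates each, are given where their tables cover the same bases. Every table holds 1 profile per region with both replicates combined. Differences therefore could not be set against the spread between replicates and carry no test. Ranges over the 5 chromosomes are descriptive. No cmt3 window reached the CMT3 gene, so the mutation could not be checked from these files.

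Over the distinct bases of all cmt3 windows, mean coverage was 9.43 fragments per base in Col-0 and 5.73 in cmt3. For comparison with Col-0, cmt3 values were divided by 0.586, which equalises total coverage of the outermost 200 positions on each side of all CHG windows. A level is the mean number of fragments per base over the DMR. A log2 ratio compares scaled cmt3 with Col-0 after adding a pseudocount of 1 to both, which understates differences at low coverage. The median log2 ratio of all CHG DMRs was -0.35, against which the values below are to be read.

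H3 coverage was much lower in cmt3 than in Col-0 at the shared DMRs. On average, a shared DMR had a level of 11.6 in Col-0 and of 4.68 in cmt3 after scaling. The median log2 ratio was -1.62, with medians from -1.93 to -1.52 on the 5 chromosomes. At CHG DMRs outside CHH DMRs the levels were 17.5 and 16.9, and the median log2 ratio was -0.23, with chromosome medians from -0.31 to -0.19. The medians of the sets differed by -1.39, and by -1.74 to -1.23 on single chromosomes, so that the chromosome ranges did not overlap. In bulk leaves, fewer cells with a nucleosome at a site and fewer recovered fragments per cell cannot be told apart. Other sources of lower coverage were not tested. When cmt3 was instead scaled on the flanks of the shared windows alone, the medians were -0.74 and 0.95, so the sign at the other DMRs depends on the scaling. A scaling moves both sets together, so their order says nothing about it.

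Of the 331 shared DMRs, 239 were lower in cmt3 by 2-fold or more, which is 72.2%. Among all CHG DMRs the share was 31.2%, and among those outside CHH DMRs it was 26.1%. The count was 152 with scaling on the flanks of the shared windows alone and 127 with a pseudocount of 5. The shares of all CHG DMRs and of those outside were not computed at these settings, so 31.2% and 26.1% do not apply to them. Only 3 shared DMRs were higher by 2-fold or more, against 2.09% of all CHG DMRs and 2.24% of those outside CHH DMRs. Those 3 had at most 2 fragments at their central base in either genotype. In any amount, 304 were lower (64.7% of all CHG DMRs were, and 61.3% of those outside). Another 17 were higher (30.2% of all CHG DMRs were, and 33.3% of those outside). No fragment in either genotype was found at 10, against 152 of all 2960 and 142 of the 2629 outside. No cmt3 fragment lay over 122 of the shared DMRs (21.2% of all CHG DMRs had none, and 19.2% of those outside). Col-0 fragments were lacking at 11 (6.11% of all CHG DMRs, and 6.47% of those outside). These zeros are unscaled counts from unequal coverage, and they were more frequent in cmt3 outside CHH DMRs too. Individual levels ran from 0 through a median of 7.87 to 60.5 in Col-0, and from 0 through 1.14 to 59.3 in cmt3. The ranges therefore overlap, and the difference lies in how the levels are spread within them.

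**Figure D1:**
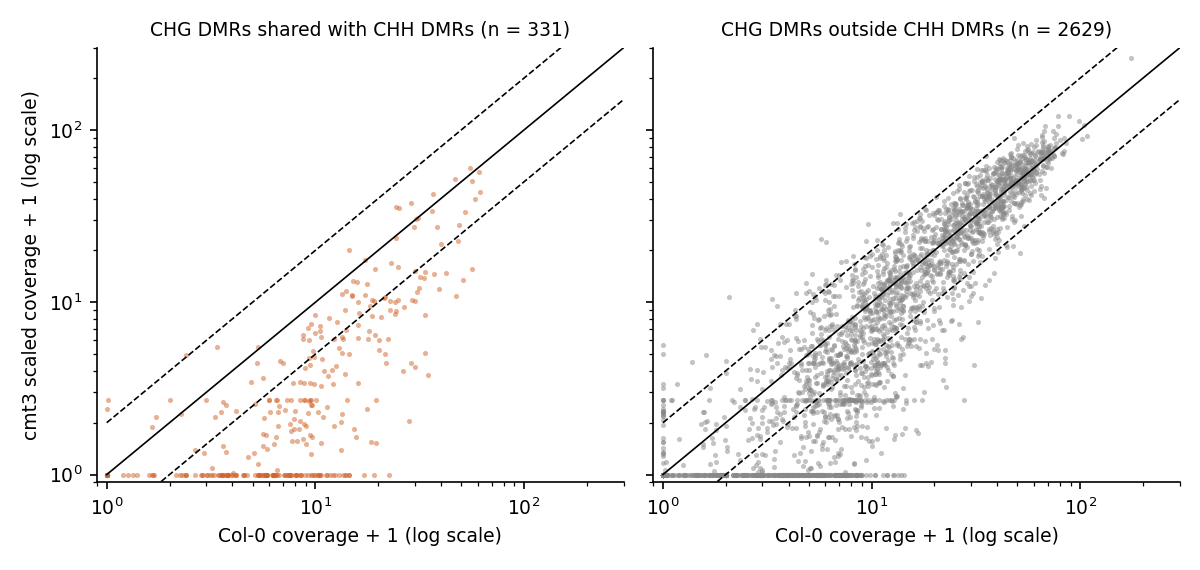
Scaled cmt3 against Col-0 coverage over each DMR, both plus 1 on log axes, for the 331 shared DMRs (left) and the 2629 outside CHH DMRs (right). The solid line marks equal coverage and the dashed lines 2-fold differences. Most shared DMRs lie under the lower dashed line (239 of 331), while the others gather around the solid line at high coverage.

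The lower coverage extended over the whole window of about 1.1 kb and was not limited to the DMR. In steps of 100 bp, cmt3 coverage of the shared windows was between 0.322 and 0.403 times the Col-0 coverage after scaling. Without scaling, the cmt3 to Col-0 ratio was 0.236 over the DMR and 0.213 over the outer flanks. These flanks include bases inside other cmt3 DMRs, and leaving those bases out turned the order of the 2 ratios. For DMRs outside CHH DMRs the unscaled ratios were 0.565 and 0.612. The flanks of the shared windows had a level of 5.98 in Col-0 and 2.18 in cmt3.

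Averaged over all shared windows, H3 coverage in cmt3 still peaked at the DMR. The DMR stood above its outer flanks by a factor of 1.94 in Col-0 (1.47 to 2.67 on the chromosomes) and of 2.15 in cmt3 (1.17 to 3.07). These values need no scaling between genotypes. Their order turned when flank bases inside any cmt3 DMR were left out, at 2.40 in Col-0 and 2.10 in cmt3, so neither genotype can be said to have the sharper peak. The average is weighted to DMRs of high coverage. At the 48 shared DMRs with a Col-0 level from 20 to 50, the DMR to flank ratio was 3.68 in Col-0 and 4.79 in cmt3. At the 104 with a level from 5 to 10 it was 1.35 and 0.739, and at the 68 from 2 to 5 it was 0.726 and 0.292. In those lower classes, which are set by the Col-0 level itself, the mean cmt3 coverage showed no peak. CHG DMRs over 1000 bp from a CHH DMR showed none in these classes either. Their ratios were 0.880 in Col-0 and 0.604 in cmt3 from 5 to 10, and 0.537 and 0.334 from 2 to 5. At the shared DMRs, the mean profile was highest 4 bp right of the DMR centre in Col-0 and 2 bp left of it in cmt3. In the 56 shared windows where both genotypes reached 10 fragments near the DMR, the summits were a median of 4.75 bp apart, and in 45 (80.4%) they were within 20 bp. Outside CHH DMRs, 1275 windows met this minimum, with a median of 14.0 bp and 58.2% within 20 bp. In most of these 56 windows the cmt3 summit thus lay near that of Col-0. Neighbouring windows can hold the same peak, and separate peaks were not counted. The minimum kept 56 of 331 shared windows and 1275 of 2629 others, so the 2 percentages come from unlike selections.

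**Figure D2:**
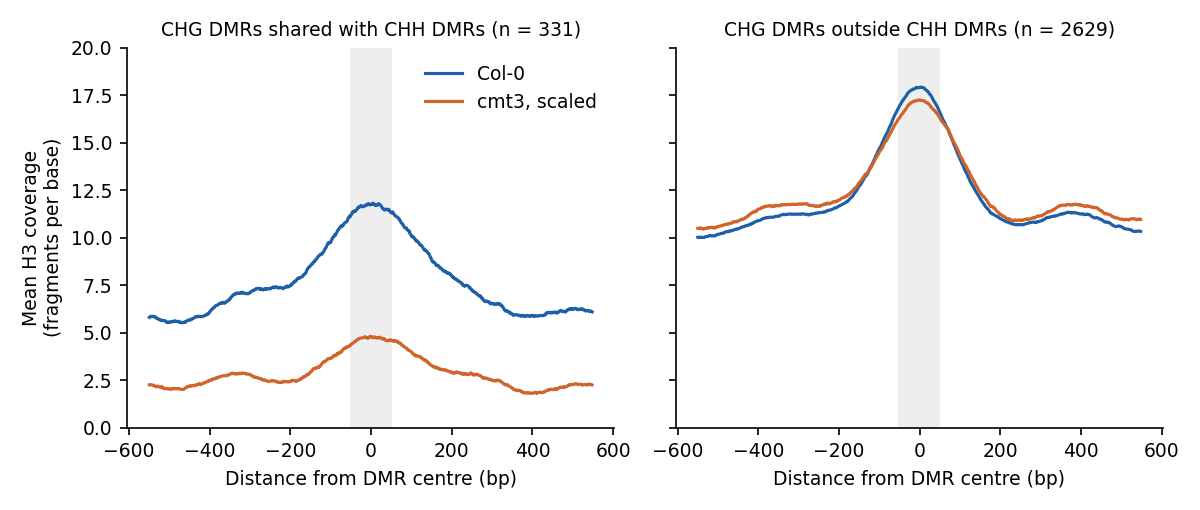
Mean H3 coverage (fragments per base) by distance from the DMR centre, in Col-0 and in cmt3 after scaling, with the DMR shaded. At the shared DMRs (left) the cmt3 curve peaks at 4.81 and the Col-0 curve at 11.8, and the gap spans the window. At DMRs outside CHH DMRs (right) the curves nearly coincide, with peaks of 17.2 and 17.9.

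The shared DMRs had the lower median in each class of Col-0 coverage examined, although the size of the difference varied. Among shared DMRs with a Col-0 level from 5 to 10, the median log2 ratio was -2.10 over 104 DMRs. CHG DMRs of the same Col-0 level that lay more than 1000 bp from a CHH DMR had a median of -0.70 over 451. At Col-0 levels from 20 to 50, the medians were -1.27 (48 shared DMRs) and 0.07 (569). Above 50 they were -0.52 (8 shared DMRs) and 0.05 (207). In the class from 5 to 10, 35.6% of shared DMRs and 9.98% of the distant ones had no cmt3 fragment. Below a level of 2 the medians were -0.33 and 0, and so few fragments show little either way.

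CHG DMRs that did not overlap a CHH DMR but lay near one were also low in cmt3. The median log2 ratio was -1.50 at the 63 CHG DMRs that touched a CHH DMR without sharing a base. It was -1.41 at the 132 members with 50 shared bases and -1.82 at the 199 with all bases shared. With a gap of 100 to under 500 bp the median was -1.07, with 1000 to under 2000 bp it was -0.49, and at 20000 bp or more it was -0.10 (1866 DMRs). The medians thus showed no step at the edge of the CHH DMRs. The 1596 CHH DMRs without CHG overlap, scaled in the same way, had levels of 3.90 in Col-0 and 1.57 in cmt3. Their median log2 ratio was -0.90, and at such low levels the pseudocount understates differences. The unscaled cmt3 to Col-0 ratio of summed coverage was 0.236 there and also 0.236 at the shared DMRs. Those CHH DMRs showed no H3 peak in Col-0, where the DMR held 0.932 times the flank level.

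**Figure D3:**
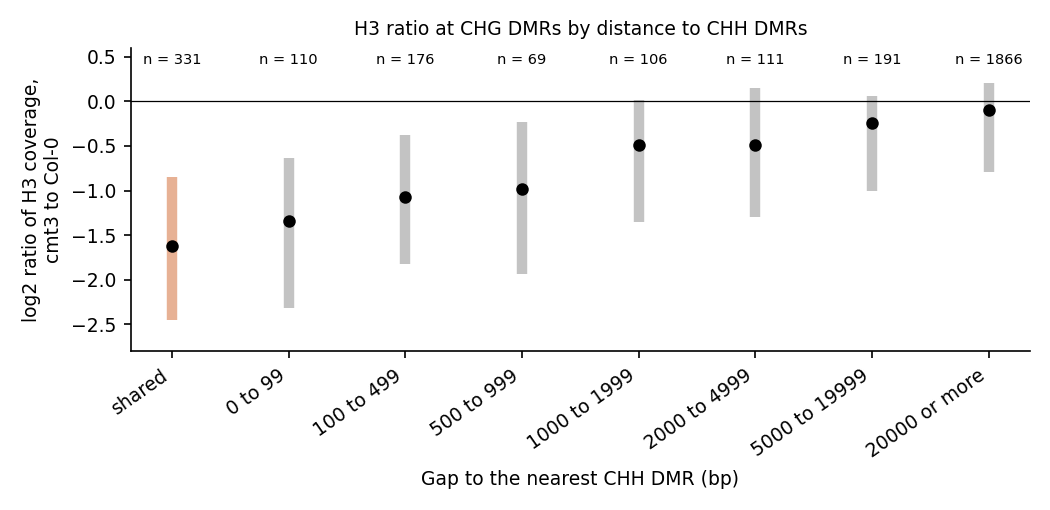
Median log2 ratio of H3 coverage, cmt3 to Col-0, at CHG DMRs grouped by their gap in bp to the nearest CHH DMR. Points are medians, bars run from the lower to the upper quartile, and n is the number of DMRs. The median is -1.62 at the shared DMRs and -0.10 at a gap of 20000 bp or more.

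The shared DMRs were clustered. Because DMRs lie on a 50 bp grid and overlap, the 331 formed 180 separate places, of which 97 held 1 DMR and 30 held 3 or more, with 26250 distinct bases in all. Neighbouring DMRs share fragments and are not independent. Taking 1 DMR per place gave a median of -1.59, with 128 of 180 places lower by 2-fold or more and 2 higher. The same choice outside CHH DMRs gave a median of -0.17 over 1838 places, whose 2-fold calls were not counted. By chromosome, the number of shared DMRs ranged from 49 on chromosome 2 to 100 on chromosome 3.

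Positions are in TAIR10 coordinates, the build named in the submitters' processing notes. Loci were assigned by overlap with the RefSeq gene table of TAIR10.1, and Col-0 H3 coverage was lowest 99 bp outside the ends of protein-coding loci, so the annotation and the tables are in register. Of the shared DMRs, 289 (87.3%) overlapped a locus of the pseudogene classes, which in this annotation include transposable element genes, against 75.4% of the CHG DMRs outside CHH DMRs. A protein-coding locus was overlapped by 25, and 22 overlapped no locus. The 63 pseudogene loci concerned had a median length of 4332 bp (quartiles 3964 and 4647), compared with 3506.5 bp for the 772 such loci under the other CHG DMRs and 2043 bp for all 3917 in the table.

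Most shared DMRs lay in gene-rich stretches. In 1 Mb bins of the genome, 303 of them (91.5%) fell where protein-coding loci were at least as many as pseudogenes, against 41.2% of the CHG DMRs outside CHH DMRs. Within such gene-rich bins the median log2 ratio was -1.58 at shared DMRs and -0.44 at the 1083 others. In the pseudogene-rich bins it was -1.93 at 28 shared DMRs and -0.11 at 1546 others. The lower H3 level was seen in both kinds of bin.

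Low cmt3 coverage also marked the remaining CHG DMRs of the same loci. The 331 regions touched 77 loci, and 55 of these held CHG DMRs outside CHH DMRs too. Those 283 DMRs had a median log2 ratio of -1.28, with levels of 11.8 in Col-0 and 6.52 in cmt3. By contrast, the 1710 DMRs in pseudogene loci without any shared DMR had a median of -0.14 and levels of 19.4 and 19.5. Within the 55 loci the shared DMRs had the lower median in 32 and the higher one in 23. The lower coverage was therefore found across these loci as well as at the shared DMRs.

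Averaged per locus, coverage of the shared DMRs was lower in cmt3 at 75 of 77 loci, by 2-fold or more at 55. These loci are not all separate, since AT3G57586 and AT3G57587 held the same 5 DMRs, and some loci held a single DMR. No such count per locus was made at loci without a shared DMR. Of the single CHG DMRs in pseudogene loci without one, 21.6% were lower by 2-fold or more. A small number of loci held many of the regions, since 5 loci accounted for 96 of them (29.0%). Without those 5 loci the median over the other 235 shared DMRs was -1.51.

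AT4G20365, a pseudogene locus of 5325 bp on chromosome 4, held 29 shared DMRs. Their mean level was 17.6 in Col-0, with single DMRs between 0 and 55.1, and 3.38 in cmt3, between 0 and 14.5. Of the 29, 28 were lower in cmt3 and 26 by 2-fold or more. The tallest Col-0 peak among its shared DMRs lay at chromosome 4, 10994151 to 10994250, with a level of 55.1 against 14.5 in cmt3. There, cmt3 contributed 14.7% of the 68 fragments on the central base (exact Clopper-Pearson 95% interval 7.28% to 25.4%), where equal scaled coverage would give 36.9%. This DMR was picked for its high Col-0 level, which favours a low cmt3 share, so this is no separate test. The interval was not compared with the lower equal share that scaling on the flanks of the shared windows alone would give. Such intervals cover counting error only, and reads carried no molecular identifiers. At the same locus, 8 DMRs from 10997001 to 10997450 formed one of the largest places, with log2 ratios from -2.84 to -0.88. The ratio was thus uneven along the locus and even within one place, where it was lowest at the DMR starting at 10997051.

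AT3G26483 on chromosome 3 held 26 shared DMRs, with mean levels of 10.9 in Col-0 and 3.31 in cmt3, and all 26 were lower. Its place of 8 DMRs at chromosome 3, 9695701 to 9696200, covered a single Col-0 peak that reached 41.1 and stood at 13.7 in cmt3 over the same 100 bp. The log2 ratios of those 8 ran from -2.20 to -0.94. At AT3G48523, also on chromosome 3, the 15 shared DMRs had a mean of 5.41 in Col-0 and 0.602 in cmt3, and 8 of them had no cmt3 fragment. AT3G46183, with 12 shared DMRs, held the third place of 8 DMRs, at chromosome 3, 16958901 to 16959400. Col-0 levels there lay between 7.76 and 10.6, while the log2 ratios ran from -2.86 in the middle to -0.52 at the left edge and -0.50 at the right edge.

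**Figure D4:**
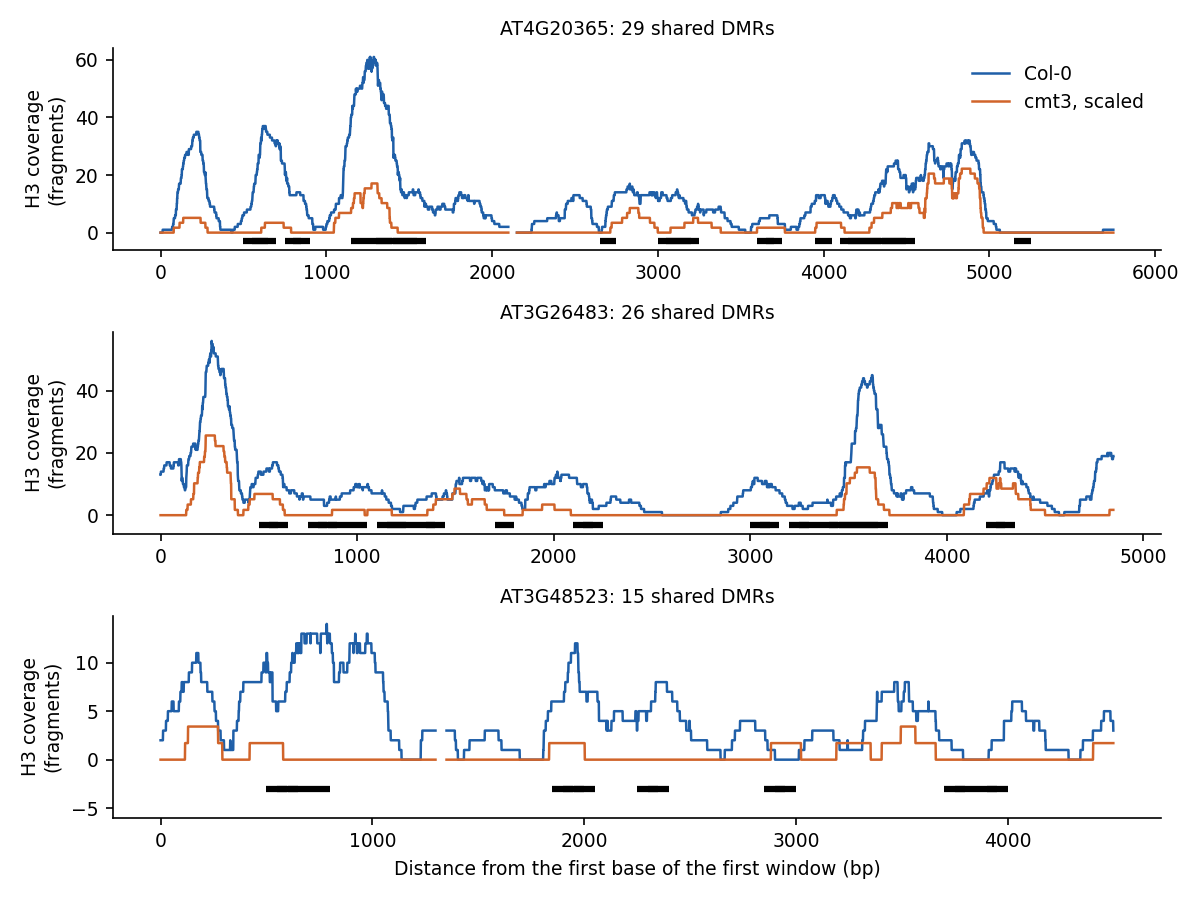
H3 coverage along the 3 loci with the most shared DMRs, in Col-0 and in cmt3 after scaling, by distance from the first base of the first window. Black bars mark the shared DMRs (29, 26 and 15), and gaps in the lines are bases outside the windows. Col-0 peaks recur along each locus, and the cmt3 line lies under most of them.

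The 4 places with the lowest ratios, among the 43 whose strongest DMR reached a combined level of 20, included 1 with no cmt3 fragment at all. At chromosome 5, 9983051 to 9983150, where no locus is annotated, Col-0 had a level of 21.5 and cmt3 of 0. None of the 23 fragments on its central base came from cmt3, and the exact interval for this share runs up to 14.8% (3 fragments, the limit taken for a count of 0, would be 13.0%). Its flanks were much less affected, at 8.45 in Col-0 and 6.26 in cmt3. The remaining 3 lay in windows with low cmt3 flanks. At AT4G20365, the DMR at chromosome 4, 10993501 to 10993600 had levels of 33.6 in Col-0 and 2.77 in cmt3, a cmt3 share of 5.56% (0.680% to 18.7%) and flanks of 23.8 and 4.96. The DMR at chromosome 1, 16491651 to 16491750, with no annotated locus, had levels of 18.6 and 1.71 and a share of 5.26% (0.133% to 26.0%). At AT5G19097, the DMR at chromosome 5, 6406801 to 6406900 had levels of 29.0 and 3.23 and a share of 6.06% (0.743% to 20.2%). All 4 intervals or limits lie under 36.9%, but these places were picked for their low ratios, so this is no separate test. The intervals were not compared with the lower equal share that scaling on the flanks of the shared windows alone would give.

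Of the same 43 places, 39 were lower in cmt3 and 4 were higher. Places outside CHH DMRs were not counted in this way. With the scaling to the flanks of all CHG windows, the 4 higher ones differed by less than their counting error. The first lay at chromosome 4, 10053551 to 10053650, in the protein-coding locus AT4G18150, with levels of 24.1 in Col-0 and 34.4 in cmt3 and a cmt3 share of 45.1% (31.1% to 59.7%). The second was in AT5G19097 at chromosome 5, 6403801 to 6403900, with 35.4 and 41.6 and a share of 40.9% (29.0% to 53.7%). The third, at chromosome 2, 15851101 to 15851200, overlapped no locus and had 54.4 and 59.3, a share of 40.4% (30.9% to 50.5%). The fourth, in AT4G16010 at chromosome 4, 9070001 to 9070100, had 29.5 and 29.6, a share of 31.9% (19.1% to 47.1%).

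The 3 places with the tallest Col-0 peaks had cmt3 shares from 14.7% to 37.1%. They were picked for their Col-0 level, which favours low cmt3 shares, so these shares are no separate test. Only the intervals of the lowest and the highest share did not overlap. At AT1G16660, chromosome 1, 5692201 to 5692300, Col-0 had a level of 60.5 and cmt3 of 42.5, with a cmt3 share of 30.0% (20.8% to 40.6%) that includes 36.9%. Outer flanks of that window held 1.49 in Col-0 and 0 in cmt3. At AT2G20460, chromosome 2, 8816551 to 8816650, the levels were 59.8 and 56.4 and the share 37.1% (27.5% to 47.5%). The peak of AT4G20365 described above ranked next and was the only one of these 3 with a share under 36.9% across its whole interval.

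Mutants of the other methyltransferases did not show the same pattern at the bases that could be compared. The windows of the drm2 and met1-3 tables both contained all bases of 67 shared DMRs in 38 places. These lie close to DMRs of all 3 mutants and are no random sample of the 331. For this comparison each mutant was scaled to Col-0 over its window bases outside DMRs (factors 0.631, 1.27 and 0.477 for cmt3, drm2 and met1-3), and all share the same Col-0 libraries. Mean levels were 16.3 in Col-0, 7.34 in cmt3, 17.5 in drm2 and 14.0 in met1-3. The median log2 ratio was -1.41 in cmt3 (quartiles -2.06 and -0.63), 0.14 in drm2 (-0.23 and 0.61) and -0.03 in met1-3 (-0.59 and 0.35). Lower levels were seen at 62 of the 67 in cmt3, at 25 in drm2 and at 35 in met1-3. Among all 937 CHG DMRs covered in the same way, 62.1%, 46.7% and 63.8% were lower. Levels lower by 2-fold or more were found at 43, 3 and 11 of the 67, against 20.4%, 3.63% and 17.3% of the 937. The drm2 and met1-3 counts of 2-fold calls thus lay near their background, and the cmt3 count above it. With the larger sets covered by a single mutant, the medians were 0 in drm2 (83 DMRs) and 0 in met1-3 (101 DMRs), against -1.43 and -1.49 in cmt3 at the same bases.

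**Figure D5:**
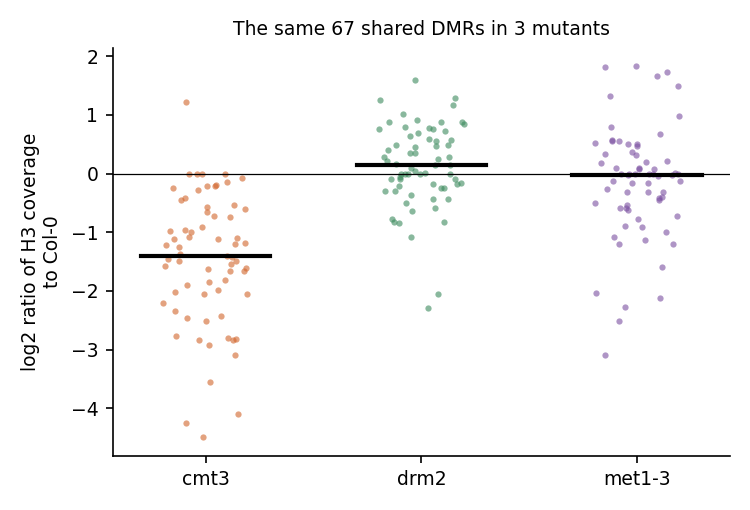
Log2 ratio of scaled mutant to Col-0 H3 coverage at the 67 shared DMRs whose bases are covered by the tables of cmt3, drm2 and met1-3. Each point is a DMR and black lines are medians, at -1.41, 0.14 and -0.03.

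Few of the regions were DMRs in other mutants. A drm2 CHH DMR overlapped 12 of the 331 (3.63%), a drm2 CHG DMR 24 (7.25%) and a met1 CG DMR 33 (9.97%). For the CHG DMRs outside CHH DMRs the shares were 0.418%, 18.2% and 21.8%. A cmt3 CG DMR overlapped 13 of the shared DMRs (3.93%) and 0.342% of the others. The authors' lists of Pol V-stabilized and SWI3B-stabilized nucleosomes contained none of the shared DMRs, but also only 1 and 2 of the 2629 others, so this count shows no difference.

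DNA methylation was available for hardly any of these regions, since bisulfite tables were made around the listed nucleosomes. They come from a separate set of leaves of the same age and background, with its own Col-0 and 2 replicates each of Col-0, nrpe1 and swi3b. Only 1 shared DMR lay wholly in such a window, at chromosome 1, 30427401 to 30427500, in AT1G81020, a transcribed pseudogene. Its mean methylation level was 33.3% over 7 cytosines in Col-0, 2.30% over 5 in nrpe1, which lacks the largest subunit of RNA polymerase V, and 40.9% over 5 in swi3b, a mutant of a SWI/SNF remodeller subunit. The context of these cytosines and the read depth are unknown, replicates were combined, and no cmt3 methylation values were used. In the methyltransferase set, whose Col-0 is a different group of samples, H3 levels at this DMR were 2.80 in Col-0 and 0 in cmt3.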

How the data were processed

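MNase-H3-ChIP-seq was read as 50 bp paired ends, per the labels' protocols. Per the submitters' processing notes the build was TAIR10 and the tools were Bowtie2, Picard, Bismark and methylKit; their versions and roles, the fragment filter and the DMR settings are not given in the sources used here. The deposited H3 tables hold whole-number coverage (signal) per base over 1099 positions of a window around each DMR, with both replicates combined by the authors and no normalization found. The deposited methylation tables hold a fraction per cytosine, also combined by the authors, printed here as percent. The first value of a row was taken as the window's first base, so positions may be off by 1 bp.

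The planned count test needs replicate columns, so values are descriptive. Shared DMRs overlap a CHH DMR by at least 1 base. A call is a 2-fold difference. DMRs that overlap or touch form a place, represented by its DMR of highest combined coverage. Named places are the 4 lowest and 4 highest log2 ratios at a combined coverage of at least 20, the 3 with most DMRs and the 3 with the highest Col-0 level. Loci with most shared DMRs, and regions in observations, were chosen after their values were seen. The regions and comparisons were chosen with earlier results of these data known. Alternatives were other scalings, pseudocounts, coverage minimums, widths, overlaps, flanks and summaries. The procedure was tested on simulated data. No genome sequence was used here. Tables were handled in pandas 2.3.3 and numpy 2.4.6, intervals came from scipy 1.17.1, and plots from matplotlib 3.10.9, all under Python 3.11.15.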

Additional observations from a re-analysis of the deposited data

How the results depend on the processing

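No paired analysis was possible because each table combines both replicates of a genotype, and for the same reason leaving out replicates was not run. Medians are said to move if the shift exceeds the SD between the 5 chromosomes, and counts if they change by over 1.5 times. Of 73 alternative values, 44 held, 28 moved and 1 changed sign. The 44 include the values for at least 50 shared bases, which selects the same 331 DMRs and could not differ. The median at shared DMRs stayed below 0 and below that of the others throughout, though the scalings move both together and could hardly change that order. Scaling on the flanks of the shared windows alone gave -0.74 for the shared DMRs, 0.95 for the others, a difference of -1.68, and 152 lower and 29 higher by 2-fold. This scaling sets the flanks of the shared windows equal by construction, and it shifted the median of all CHG DMRs to 0.78. With the pseudocount at 0.5 the median was -1.93 and the difference -1.69. With 5, these were -0.84 and -0.69, the others stood at -0.15, and 127 and 0 DMRs passed 2-fold. For none of the alternatives was the 2-fold share of all CHG DMRs computed, so these counts have no background. A Col-0 level of at least 10 gave -1.37 (122 DMRs, 81 lower, 0 higher) and -0.029 for the others. A combined level of at least 10 gave -1.35 (152 DMRs, 99 lower, 0 higher) and -0.044. These counts come from fewer DMRs. The first minimum is set on the Col-0 level, the denominator of the ratio, and so favours low ratios. All 3 shared DMRs higher by 2-fold in the main setting had Col-0 levels under 2. That minimum removed them, so its count of 0 higher is no separate result. One DMR per place gave 128 lower, from 180 places, and -0.17 for the others. The others also moved to -0.30 with flank bases outside every DMR, -0.018 with the median ratio over DMRs, and -0.49 as a mean, which made the difference -1.15. DMRs with all 100 bases shared gave -1.82. Chosen after seeing the data, DMRs over 1000 bp from a CHH DMR gave -0.13, and gene-rich bins alone a difference of -1.13. Depth limits DMRs at low coverage, as 36.9% of the shared DMRs had no cmt3 fragment.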

Other observations

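Within single loci the ratio could differ widely between places. At AT5G19097 on chromosome 5, 4 DMRs starting between 6403751 and 6403901 had log2 ratios from -0.01 to 0.48, at Col-0 levels up to 35.4. Another 3, starting between 6406801 and 6406901, had -2.83 to -2.23 at Col-0 levels up to 29.0. These places lie about 3 kb apart with others between them. With the scaling to the flanks of all CHG windows, the difference at the tallest DMR of the first was within counting error. With each mutant scaled on bases outside its own DMRs, drm2 levels at those 3 DMRs were 24.5, 24.4 and 14.1, against 29.0, 27.8 and 15.0 in Col-0. On that scale, the DMR of AT4G18150 starting at 10052801 on chromosome 4 was at 20.8 in Col-0, 3.17 in cmt3 and 28.6 in drm2. The DMR starting at 10053551 in that locus was at 24.1, 31.9 and 24.4.

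Protein-coding loci under the shared DMRs numbered 12. The 1 with a gene symbol was PPME1, which encodes a pectin methylesterase. Its single DMR had a level of 7.44 in Col-0 and 2.44 in cmt3. The one with the most was AT3G57587, whose 5 DMRs had a mean level of 24.5 in Col-0 and 10.1 in cmt3 and log2 ratios from -1.50 to -0.76. These 5 DMRs also lay in the pseudogene locus AT3G57586, so the 2 loci cannot be told apart there. AT2G41590 had 23.2 and 8.47 over 2 DMRs.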
